A study of Rattus norvegicus with 8 samples.

Results

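The Kruppel-like factors examined here were 10 genes (Klf2, Klf3, Klf4, Klf5, Klf6, Klf7, Klf9, Klf10, Klf13 and Klf15). They were found on the array as every probe set whose platform annotation gave exactly 1 gene symbol equal to one of these names. This gave 12 probe sets of the 28826 measured, since Klf4 and Klf5 had 2 each and the other genes had 1. The samples were left ventricles of female rats in late pregnancy whose hearts had all undergone ischemia, the stop of blood flow, and then reperfusion. ILPD, the treatment as the labels name it, accompanied reperfusion in 5 samples, as 1 bolus of 5 mg/kg, and the placebo vehicle did so in 3 samples. The design text writes the treatment as ITLD, and the series title names Intralipid, an intravenous lipid emulsion; that these names stand for 1 treatment is assumed. Hearts without ischemia were not analysed here, so each value compares injured, treated hearts with injured, vehicle hearts. Whether every sample is a separate animal is not stated in the labels, so the spread behind the p-values may hold technical variation. Where a heart is counted below, the sample of 1 array is meant.

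Kruppel-like factors are transcription factors that bind CACCC and GC-rich elements through zinc fingers at the end of the protein. Members are known for different places and triggers: Klf2 and Klf4 for endothelium under blood flow, Klf10 as an early gene of transforming growth factor beta (TGF-beta), Klf9 and Klf15 as genes raised by glucocorticoids, and Klf15 for fuel use in heart muscle. In the injured heart they are studied as links between blood flow, inflammation, growth and metabolism.

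Regulatory sequence upstream of the members is shown because these proteins recognise letters that can also stand before their own genes. RefSeq windows (assembly GRCr8) covering the 250 bases before the annotated gene start were at hand for 7 of the 10 genes; Klf2, Klf10 and Klf13 are only named. The Klf9 window is shown as an example, picked by the brightness of its probe set, which does not rank the genes' levels. It lies on the plus strand at chr1:230126396-230126645. Capitals mark the only CACCC in it, which begins 117 bases before the start.
Klf9 upstream window: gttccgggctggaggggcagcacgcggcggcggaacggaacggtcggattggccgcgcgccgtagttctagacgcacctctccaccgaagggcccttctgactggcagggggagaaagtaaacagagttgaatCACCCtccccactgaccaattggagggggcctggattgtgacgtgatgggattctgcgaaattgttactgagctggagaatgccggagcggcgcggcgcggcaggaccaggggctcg
CACCC, or GGGTG on the other strand, was found in 5 of the 7 windows (Klf3, Klf5, Klf7, Klf9 and Klf15), against 49.2% of all 33469 RefSeq windows of this length. The GC box GGGCGG, or CCGCCC, was in those of Klf6 and Klf7, against 30.5% of all windows. The E-box CACGTG, a clock-factor element that reads the same on both strands, was in those of Klf6 and Klf15, against 5.59%. These are matches of letters, and an annotated start may lie inside a longer transcript.

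Values were the authors' deposited log2 signals, with array medians from 7.16 to 7.20 in ILPD and from 7.08 to 7.14 in placebo. The correlation over all probe sets was 0.991 to 0.995 within groups and 0.989 to 0.993 between an ILPD and a placebo array. The number of arrays limits the precision. Heart muscle markers, the check of the labelled tissue, had a median signal of 13.53 over 11 measured genes. A level in whole ventricle cannot tell fewer cells of a type from less RNA per cell. Signals of different probe sets are not set against each other, since probes differ in how brightly they light up.

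Of the 12 probe sets, 1 rose in ILPD hearts, that of Klf10, and 0 fell, at an adjusted p of 0.05 in limma over all probe sets. Over all 28826 probe sets 2.81% passed that test, 1.96% as higher and 0.857% as lower in ILPD. At an unadjusted p under 0.05, 4 of the 12 passed (Klf2, Klf10 and both of Klf4), against 18.3% of all probe sets. The difference was positive for 8 probe sets and negative for 4, against 58.5% positive overall. The members' median difference was 0.10 on the log2 scale, where that of all probe sets was 0.02.

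**Figure D1:**
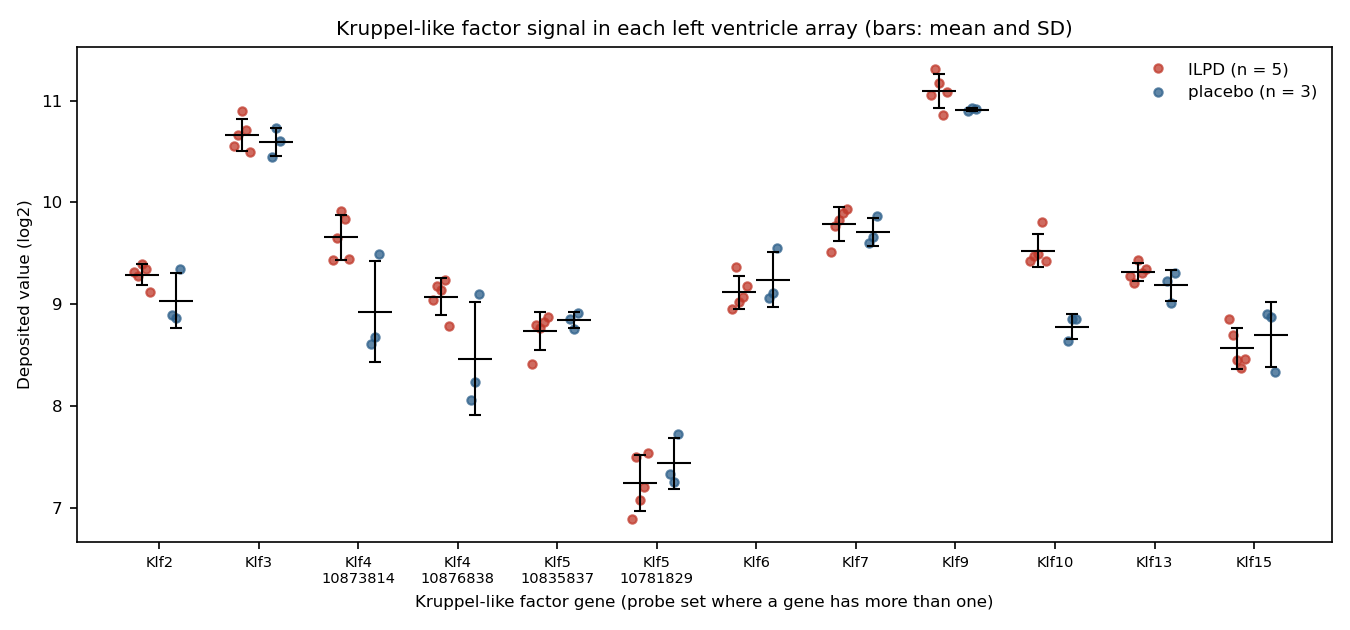
Deposited log2 signal (vertical axis) of each Kruppel-like factor probe set (horizontal axis) in 5 ILPD arrays (red, left of each pair) and 3 placebo arrays (blue, right), with group mean and SD as black bars. The Klf10 groups do not overlap, and in Klf2 and both Klf4 probe sets 1 placebo array lies among the ILPD arrays.

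Klf10, also known as the TGF-beta-inducible early gene, codes for a repressor that responds to TGF-beta and other growth signals. Its probe set (10903459) read 9.42, 9.47, 9.49, 9.81 and 9.42 in the 5 ILPD hearts, against 8.63, 8.85 and 8.85 in the 3 placebo hearts. The ILPD hearts lay all above the placebo hearts, with a gap of 0.57 between the lowest ILPD and the highest placebo value. Group means were 9.52 ± 0.16 in ILPD (SD, n = 5) and 8.78 ± 0.12 in placebo (SD, n = 3). The difference was 0.74 (SE 0.10, 95% interval 0.53 to 0.96), a 1.67-fold rise, with a limma adjusted p of 0.00579. It ranked number 85 by p among all probe sets, and an exact two-sided permutation test over the 56 ways to part the arrays gave p = 0.0179, the smallest it can give. Of the 12 probe sets 1 had no overlap between groups, this one, against 12.4% of all probe sets (7.95% with ILPD above and 4.42% with ILPD below). All probe sets with a mean signal from 9 to 10, the range that holds Klf10, had a median difference of -0.05. The call held in 15 of 15 alternative settings, with a difference from 0.67 to 0.78 and an adjusted p of up to 0.0273.

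Klf4, which is known to hold back inflammation in endothelium and to drive macrophage and smooth muscle states, was measured by 2 probe sets. The brighter (10873814) read 9.43, 9.65, 9.91, 9.84 and 9.44 in ILPD hearts, against 8.60, 8.68 and 9.49 in placebo hearts. The other (10876838) read 9.04, 9.18, 9.14, 9.23 and 8.78 in ILPD hearts, against 8.06, 8.23 and 9.10 in placebo hearts. In both, placebo arrays 1 and 2 lay below every ILPD heart, and placebo array 3 lay among them. The differences were 0.73 (SE 0.20, limma adjusted p = 0.0825) and 0.61 (SE 0.21, limma adjusted p = 0.154), so neither passed. Their 95% intervals ran from 0.29 to 1.17 and from 0.15 to 1.07, and the exact permutation p was 0.0536 for each. Leaving out a placebo array moved both values in either direction. Without placebo array 1 the differences were 0.57 (limma adjusted p = 0.266) and 0.41 (limma adjusted p = 0.433), and without placebo array 2 they were 0.61 (limma adjusted p = 0.248) and 0.49 (limma adjusted p = 0.374). Without placebo array 3 both passed, with 1.02 (limma adjusted p = 0.0207) and 0.93 (limma adjusted p = 0.0180). Both intervals reach past the estimate for Klf10, so a rise of that size in Klf4 was not excluded by these data.

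Klf2, the flow-induced factor that keeps endothelium quiescent, had a smaller difference with the same placebo array apart. It read 9.31, 9.28, 9.39, 9.34 and 9.12 in ILPD hearts, against 8.89, 8.86 and 9.34 in placebo hearts. Of the 5 ILPD values 2 lay above every placebo value. The difference was 0.26 (SE 0.11, 95% interval 0.01 to 0.50) and did not pass the test (limma adjusted p = 0.251, exact permutation p = 0.0893). Without placebo array 1, 2 or 3 it was 0.19, 0.17 and 0.41, each short of the threshold (limma adjusted p = 0.571, 0.561 and 0.0574).

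Placebo array 3 was the highest of the 3 placebo arrays in 8 of the 12 probe sets, with Klf4 and Klf5 counted 2 times each. Its array median was also the highest of the 3 (7.14, against 7.08 and 7.08), and the share of all probe sets where it was highest was not counted. Against the mean of the other 2 placebo arrays it was higher by 0.86 and 0.95 in the Klf4 probe sets, by 0.46 in Klf2, by 0.47 in Klf6 and by 0.43 in the dimmer Klf5 probe set. In Klf15 its difference from them was -0.56. In Klf10 it was 0.11, less than the 0.22 between placebo arrays 1 and 2. It lay inside the ILPD range for 7 of the 12 probe sets, and placebo arrays 2 and 1 did so for 6 each. Over all probe sets placebo array 3 lay inside the ILPD range for 58.0%, placebo array 2 for 56.5% and placebo array 1 for 55.4%. On the log2 scale its summed smooth muscle and pericyte markers, at 14.94, and its summed heart muscle markers, at 17.16, were the highest of all 8 arrays, where the others reached at most 14.87 and 17.13. Its summed endothelial markers were 13.96, where placebo arrays 1 and 2 both had 13.94, and its summed neutrophil markers were 11.39, inside the placebo range of 11.33 to 12.25. These sums add linear values, so the brightest markers weigh most, as Des (mean signal 13.83) does in the smooth muscle and pericyte sum. The part of any technical or tissue difference of placebo array 3 in the Klf4 and Klf2 values was not tested.

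**Figure D2:**
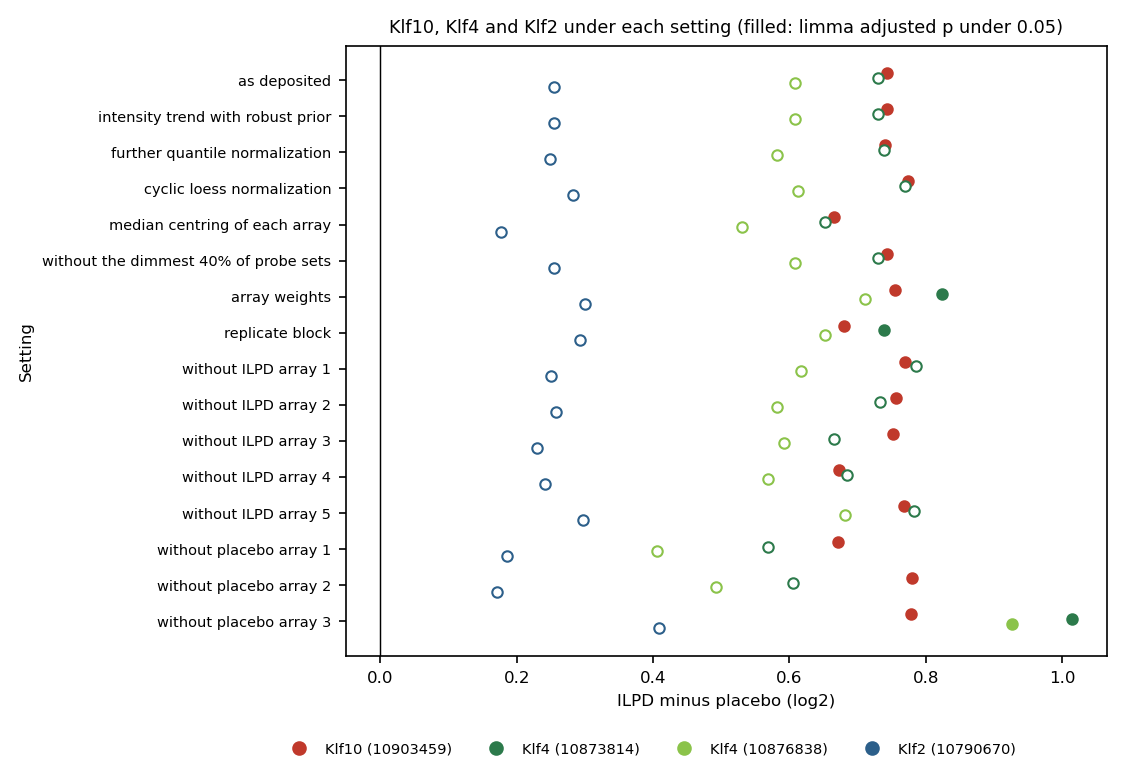
Difference between ILPD and placebo on the log2 scale (horizontal axis) for Klf10, both Klf4 probe sets and Klf2, as deposited and under 15 other settings (vertical axis), filled where the limma adjusted p was under 0.05. Klf10 is filled throughout between 0.67 and 0.78, and the Klf4 probe sets move out to 1.02 and 0.93 without placebo array 3.

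Among the glucocorticoid-linked members, neither Klf9 nor Klf15 passed the test. Klf9, a repressor also raised by thyroid hormone, read 11.06, 11.31, 11.17, 10.86 and 11.09 in ILPD hearts, against 10.89, 10.92 and 10.91 in placebo hearts. Of the ILPD hearts 4 lay above all placebo hearts and 1 lay below them. The difference was 0.19 (SE 0.09, limma adjusted p = 0.308), with a 95% interval from -0.01 to 0.38. Klf15, which in mouse heart drives genes of lipid and amino acid use and restrains hypertrophy, read 8.85, 8.70, 8.45, 8.37 and 8.46 in ILPD hearts, against 8.90, 8.87 and 8.33 in placebo hearts. Its difference was -0.13 (SE 0.15, 95% interval -0.46 to 0.20, limma adjusted p = 0.697). The low placebo value came from array 3. Leaving out placebo array 1, 2 or 3 gave -0.03, -0.05 and -0.32, none of which passed.

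Growth and wound-response members did not pass. Klf5, a factor of smooth muscle and fibroblast growth, ranged from 8.41 to 8.87 in ILPD and from 8.75 to 8.91 in placebo in its brighter probe set (10835837), with a difference of -0.11 (SE 0.10, limma adjusted p = 0.636). The dimmer probe set (10781829) gave -0.20 (SE 0.16, limma adjusted p = 0.570), the same sign. Klf6, an early factor of tissue injury, ranged from 8.95 to 9.36 in ILPD and from 9.06 to 9.55 in placebo. Its difference was -0.12 (SE 0.12, limma adjusted p = 0.669), and its sign turned without placebo array 3, to 0.03. For these 3 probe sets the 95% intervals reached no lower than -0.55 and no higher than 0.16.

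Klf3, Klf7 and Klf13 showed the smallest positive differences among the members. Klf3, a repressor that works through the CtBP corepressors, averaged 10.66 ± 0.16 in ILPD (SD, n = 5) and 10.59 ± 0.14 in placebo (SD, n = 3), with a limma adjusted p of 0.768. Klf7, known from neurons and fat cells, averaged 9.79 ± 0.17 in ILPD and 9.71 ± 0.14 in placebo (limma adjusted p = 0.740). Klf13, a partner of GATA4 in heart development in Xenopus, averaged 9.31 ± 0.09 in ILPD and 9.18 ± 0.15 in placebo (limma adjusted p = 0.423). The groups overlapped in all 3 genes. The upper 95% bounds were 0.29, 0.30 and 0.30, each below the lower bound of 0.53 for Klf10. The upper bounds of Klf2, Klf5, Klf6, Klf9 and Klf15 lay below it as well, and only those of Klf4 did not; the differences between members were not tested.

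**Figure D3:**
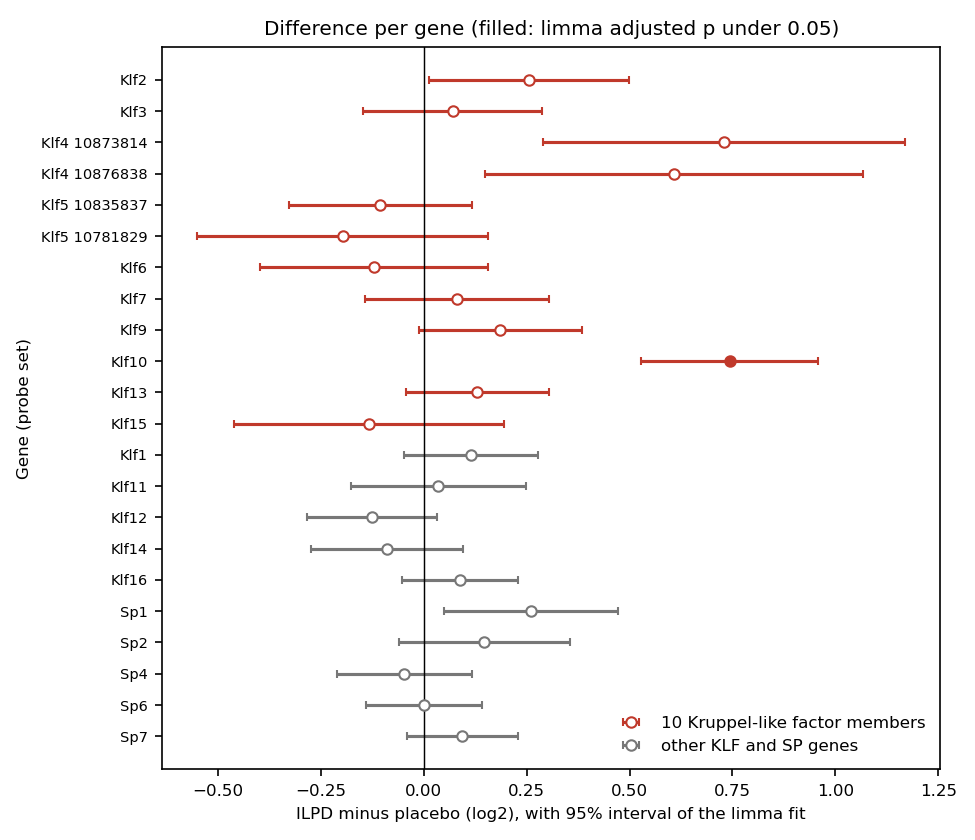
Difference between ILPD and placebo on the log2 scale (horizontal axis, points) with the 95% interval of the limma fit (bars) for the 12 Kruppel-like factor probe sets in red and 10 other measured genes of the KLF and SP families in grey. Only the Klf10 point is filled for a limma adjusted p under 0.05, and its interval from 0.53 to 0.96 clears those of all others but Klf4.

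Of 16 further genes of the wider family, the other KLFs and the related SP factors, 10 were measured here and 0 passed limma's test, with 1 at an unadjusted p under 0.05. Their differences ran from -0.13 to 0.26 with a median of 0.06. The highest was that of Sp1, the general activator at GC boxes, named after its value was seen (0.26, limma adjusted p = 0.180). Klf11, the other TGF-beta-inducible early gene and the near relative of Klf10, also named after its value was seen, averaged 8.46 ± 0.14 in ILPD (SD, n = 5) and 8.43 ± 0.16 in placebo (SD, n = 3), with a difference of 0.03 (limma adjusted p = 0.895).

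Genes around the factors were described by 10 lists, chosen with earlier results of these data known, with the brightest probe set standing for a gene. Of their 117 measured genes 3 rose and 1 fell, 3.42% in all, against 3.46% of the 14497 named genes (2.29% higher and 1.17% lower). The lists' joint share was thus near that of all named genes. For the list counts below, 18.3% of all probe sets had an unadjusted p under 0.05 and 58.5% had a positive difference.

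In the TGF-beta list, which holds the pathway that Klf10 answers to, 1 of 13 measured genes fell and 0 rose, and the median was -0.04. Tgif1, a corepressor that binds Smad proteins (probe set 10930411), fell to 8.10 ± 0.10 in ILPD (SD, n = 5), against 8.58 ± 0.23 in placebo (SD, n = 3). Its difference was -0.48 (SE 0.10, limma adjusted p = 0.0361), with the ILPD hearts all below the placebo hearts. That call was lost without any 1 of 6 arrays, namely ILPD arrays 1, 2, 4 and 5 and placebo arrays 2 and 3, with an adjusted p of up to 0.134. Smad7, the inhibitory Smad that Klf10 is known to repress, had a difference of 0.41 (limma adjusted p = 0.0540), and the ligand Tgfb1 had -0.15 (limma adjusted p = 0.479); both are named after their values were seen.

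Of 10 endothelial genes that Klf2 and Klf4 are known to induce, 0 passed limma's test, with 4 at an unadjusted p under 0.05, and 7 had a positive difference, with a median of 0.11. Nos3, endothelial nitric oxide synthase, had a difference of 0.04 (limma adjusted p = 0.910), and Thbd, the anticoagulant thrombomodulin, had 0.29 (limma adjusted p = 0.112), both named after their values were seen. Of 8 measured genes that they are known to lower, 1 rose and 0 fell, and 8 had a positive difference, with 5 at an unadjusted p under 0.05 and a median of 0.40. Both lists had a median level from 8 to 9, where all probe sets had a median difference of 0.02. The difference between these lists was not tested. The gene that rose was Ccl2, which draws monocytes (0.64, SE 0.13, limma adjusted p = 0.0358), a call lost without any 1 of ILPD arrays 2, 4 and 5 and placebo arrays 1, 2 and 3 (adjusted p as high as 0.127) and under the replicate block, so that it held in 8 of 15 settings. The list of genes upstream of Klf2 and Klf4 held kinases and MEF2 factors, and also adaptor proteins and a membrane channel. Of its 11 measured genes 0 passed limma's test, with 2 at an unadjusted p under 0.05 and a median of 0.01.

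Beside these values, the summed endothelial markers ranged from 13.87 to 14.10 in ILPD and from 13.94 to 13.96 in placebo on the log2 scale. Of 11 endothelial markers 2 rose and 0 fell: Egfl7, a protein that endothelium secretes, by 0.60 (limma adjusted p = 0.0282) and the vessel receptor Robo4 by 0.43 (limma adjusted p = 0.0381). Among the 11, 8 had a positive difference and 3 a negative one, with 5 at an unadjusted p under 0.05 and a median of 0.10. The lowest was that of Cldn5, named after its value was seen (-0.42, limma adjusted p = 0.133). The call of Egfl7 was lost without any 1 of 5 arrays (ILPD arrays 2 and 3, placebo arrays 1, 2 and 3) and that of Robo4 without any 1 of 7, all but ILPD array 1; they held in 9 and 4 of 15 settings in all. Kcnj8, a potassium channel of pericytes, rose by 0.64 as 1 of 9 smooth muscle and pericyte markers (limma adjusted p = 0.0120, lost without placebo array 2 or 3). Of these 9 markers 7 had a positive difference and 2 a negative one, with 5 at an unadjusted p under 0.05 and a median of 0.15. The summed markers of those cells ranged from 14.75 to 14.86 in ILPD and from 14.82 to 14.94 in placebo. That sum adds linear values, so it is weighted most by its brightest marker, Des, named after its value was seen (-0.17, limma adjusted p = 0.190).

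Neutrophil and macrophage marker sums overlapped between the groups. The summed neutrophil markers ranged from 11.97 to 13.06 in ILPD and from 11.33 to 12.25 in placebo, and those of monocytes and macrophages from 13.53 to 14.14 in ILPD and from 13.09 to 13.55 in placebo. The mean sum was 0.85 higher in ILPD for neutrophil markers and 0.44 higher for monocyte and macrophage markers. Of 12 neutrophil markers 1 rose (Mmp9, 0.58), 11 had a positive difference and 6 had an unadjusted p under 0.05, with a median of 0.58. Of 12 monocyte and macrophage markers 1 rose (Cx3cr1, 0.76), 9 were positive and 4 had an unadjusted p under 0.05, with a median of 0.17. Of 9 T and NK cell markers 1 rose (Klrd1, 0.52), 8 were positive and 3 had an unadjusted p under 0.05, with a median of 0.08. None of the 3 calls held without placebo array 1, 2 or 3, and Cx3cr1 also lost its call without ILPD array 2 and Mmp9 without ILPD array 1, 2, 4 or 5. Over all 15 alternative settings the call held in 2 for Mmp9, in 9 for Cx3cr1 and in 9 for Klrd1. Of 11 heart muscle markers 1 fell (Tnnc1, -0.37). That call held in 10 of 15 settings and was lost without placebo array 2 or 3, under cyclic loess, under quantile normalization and under the replicate block, with a difference as small as -0.19. All 11 heart muscle markers had a negative difference, with a median of -0.14. All probe sets with a mean signal above 12, the range that holds these markers, also had a median difference of -0.14, with 35 called lower and 3 higher. The summed heart muscle markers ranged from 16.92 to 17.09 in ILPD and from 17.13 to 17.16 in placebo, without overlap. Over the 9 marker lists 7 of 78 genes passed, 8.97%, against 3.46% of all named genes, but 0 did without placebo array 2 or without placebo array 3. Calls over all 28826 probe sets fell too, from 811 to 172 without placebo array 2 and to 241 without placebo array 3. None of the fibroblast, B cell and red cell markers passed limma's test; at an unadjusted p under 0.05 there were 1, 0 and 0. The part of these cell types in the Klf10 and Klf4 values was not tested.

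The lists linked to Klf15 and the glucocorticoid response list gave 1 call. The first Klf15 list held genes of amino acid, glucose and lipid use and 1 potassium channel subunit. Of its 15 genes 1 rose and 0 fell, and 12 had a negative difference, with a median of -0.10. All probe sets with a mean signal from 10 to 11, where the list's median level lay, had a median difference of -0.10 as well. Prodh, which starts proline breakdown (probe set 10752352), rose to 9.81 ± 0.09 in ILPD (SD, n = 5), against 9.28 ± 0.22 in placebo (SD, n = 3). Its difference was 0.53 (SE 0.10, limma adjusted p = 0.0230), and the groups did not overlap, but the call was lost without ILPD array 2, placebo array 1 or placebo array 3 (adjusted p of up to 0.0934). Of 6 hypertrophy genes that Klf15 is known to restrain, 0 passed limma's test, with 2 at an unadjusted p under 0.05. All 6 had a negative difference, with a median of -0.28. All probe sets with a mean signal from 11 to 12, where this list's median level lay, had a median difference of -0.13. Of 14 glucocorticoid response genes 0 passed limma's test, although 8 had an unadjusted p under 0.05, and the median was 0.31. That list's median level lay from 10 to 11, where all probe sets had a median difference of -0.10. The difference was positive for 9 of the 14 and negative for 5. Among the 8, Nr3c1 (-0.25, limma adjusted p = 0.0743) and Tsc22d3 (-0.37, limma adjusted p = 0.211) were negative and the others positive. Both are named after their values were seen.

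The clock list, which in mouse is known to set the daily rhythm of Klf9, Klf10 and Klf15, had 1 rise among 15 measured genes and a median of -0.12, with 10 negative differences and 9 genes at an unadjusted p under 0.05. Bhlhe40, a repressor within the clock, rose to 12.29 ± 0.10 in ILPD (SD, n = 5), against 11.76 ± 0.17 in placebo (SD, n = 3). Its difference was 0.52 (SE 0.08, limma adjusted p = 0.0138). The call held in 12 of 15 settings and was lost when placebo array 1 or 2 was left out and under the replicate block, at an adjusted p as high as 0.0701. The labels give a light cycle but no hour of sampling, so the hour of the day and the treatment cannot be told apart here. Of 16 measured cofactors and ubiquitin ligases that bind or degrade Kruppel-like factors, 0 passed limma's test, with 3 at an unadjusted p under 0.05. Of the 16, 13 had a negative difference, with a median of -0.11. All probe sets with a mean signal from 9 to 10, which holds the median levels of this list and the clock list, had a median difference of -0.05.

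**Figure D4:**
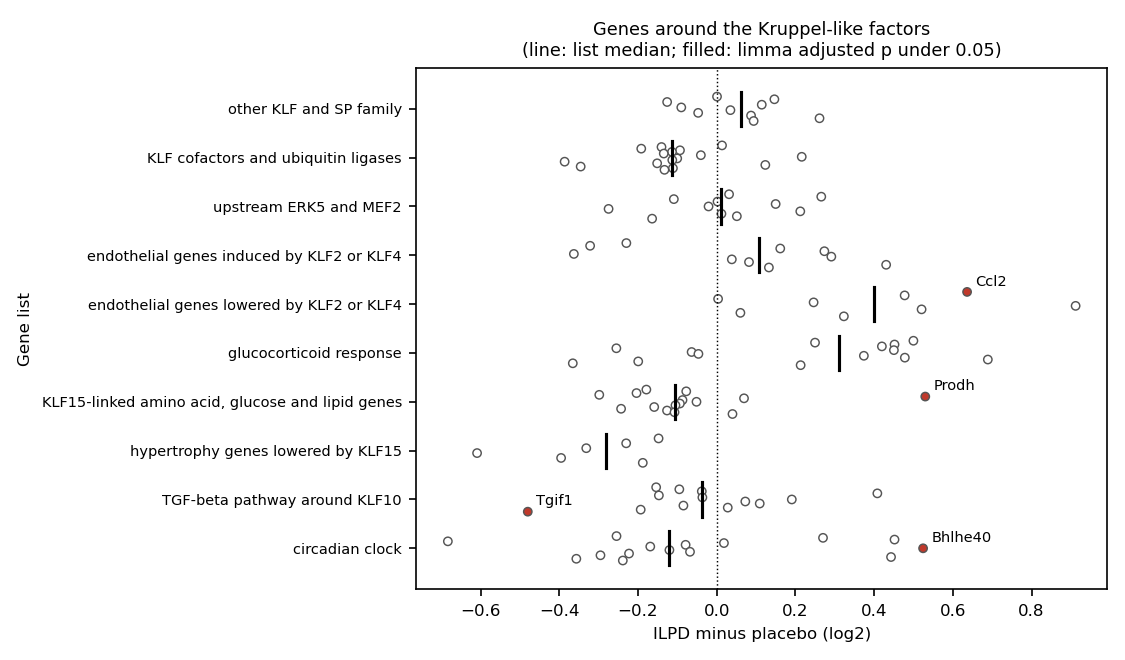
Difference between ILPD and placebo on the log2 scale (horizontal axis) of each measured gene in the 10 lists (vertical axis), with the list median as a black line and genes filled where the limma adjusted p was under 0.05. The 4 filled genes are Ccl2, Prodh and Bhlhe40 on the positive side and Tgif1 on the negative side.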

How the data were processed

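Biotin-labelled RNA was hybridised to Affymetrix arrays, per the labels' protocols. The authors deposited log2 values per probe set; the scale was read from their range. R 2.14.2 appears in the submitters' processing notes, background correction and normalization being not given in the sources used here. Names came from the platform annotation, updated by gene ID through RefSeq (GRCr8): 15209 of 28826 probe sets had 1 symbol, 306 several and 13311 none here, and 15178 matched RefSeq. No detection call was used.

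The test of each difference was limma 3.58.1 (R 4.3.3) over all probe sets, without covariates, two-sided, with Benjamini-Hochberg adjustment and a threshold of 0.05; the test was checked on simulated data. Figures used matplotlib 3.10.9. Members, lists and alternatives were chosen with earlier results of these data known. The naming rule took all members and, per list, called genes, at most 4; other genes are marked where named. Alternatives were an intensity trend with robust prior, quantile, cyclic loess and median centring, leaving out the dimmest 40% of probe sets, array weights, a replicate block, gene means, exact permutation and leaving out each array. The log2 step for linear values was not needed.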

Additional observations from a re-analysis of the deposited data

Results flagged for a closer look

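In 2 of the 12 probe sets 1 ILPD heart stood apart from the other 4, with a gap above Dixon's 95% critical value of 0.71 for 5 values; chance alone gives such a gap in about 1 of 20 groups. In Klf10, ILPD array 4 read 9.807, where the next highest read 9.49, and the gap was 0.82 of the group's range. The Klf10 call held without that array, with a difference of 0.67 (limma adjusted p = 0.00477). In the brighter Klf5 probe set, ILPD array 1 read 8.412, where the next lowest read 8.77, and the gap was 0.76 of the range. Without that array the difference was -0.026, against -0.11 with it (limma adjusted p = 0.871 and 0.636).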

How the results depend on the processing

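Over 15 alternatives with a limma adjusted p, the call of Klf10 held in all, and Klf3, Klf5, Klf6, Klf7, Klf9, Klf13, Klf15 and Klf2 passed in none. The brighter Klf4 probe set passed with array weights (0.82, limma adjusted p = 0.0421), with the replicate block (0.74, limma adjusted p = 0.0429) and without placebo array 3, and the dimmer one without placebo array 3 alone, so the member count was 2, 2 and 3 there, and 1 to 3 over single arrays left out. The mean of both Klf4 probe sets gave 0.67 (limma adjusted p = 0.106). Small differences turned sign: Klf3 to -0.0084 after median centring and between -0.0030 and 0.14 with 1 array left out, Klf7 to -0.0060 with the block, and Klf6 between -0.21 and 0.034 with 1 array left out. Replicate numbers 1, 2 and 3 occur in both groups, and 4 and 5 in ILPD alone. ILPD arrays 4 and 5 thus do not enter the differences of the block setting. The deviations of same-numbered arrays correlated at 0.22, -0.06 and -0.10, so the numbers were not taken as pairs. The block left 459 calls (337 higher, 122 lower) over all probe sets and gave 7 in the gene lists. It ended the calls of Ccl2, Bhlhe40, Tnnc1, Robo4, Mmp9 and Cx3cr1 (limma adjusted p from 0.0513 to 0.108). Single arrays moved the calls over all probe sets between 172 and 975 (116 to 600 higher, 56 to 375 lower), those in the gene lists between 1 and 7 and those among markers between 0 and 7. Quantile normalization left 484 calls (302 higher) and 1 marker, and cyclic loess left 3 markers. Median centring gave 291 higher and 793 lower calls, 26.8% higher against 69.5% as deposited, and 8 in the gene lists. The gene lists also had 8 calls without dim probe sets and 7 with array weights. The causes were not tested. With no measure of background, the arrays do not show which dim probe sets are limited by it.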
